A study of Mus musculus with 14 samples.

Results

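The eosinophil-associated ribonucleases examined here are Ear1, Ear2, Ear6 and Ear10, 4 genes of the 43432 in the deposited expression table, found by their symbols with 1 row each. They were followed in 14 RNA-seq libraries of cells sorted from mouse lung as SiglecF+ and CD11c+, the surface pair that marks alveolar macrophages. All mice were male, of strain 129S1 and 10 to 12 weeks old, and had been given either bleomycin (3 U/k, as the labels write the dose) or water through the trachea. Bleomycin is a DNA-damaging drug that injures the lung and leads to fibrosis. After bleomycin, cells with high surface MHC class II (MHCII-high) and cells with low MHC class II (MHCII-low) were taken at 2 weeks and at 4 weeks, with 3 libraries in each of these 4 groups. The controls were MHCII-low cells of water-treated mice, in 2 libraries whose labels number them 1 and 3. No time after treatment was available for the controls, so they are not known to match either time. Control cells with high MHCII were not analysed here. The labels do not say that libraries of a group came from separate animals, so each p-value measures the spread between these libraries, which may be technical.

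The Ear genes belong to the RNase A superfamily, small secreted enzymes, held together by disulfide bonds, that cleave RNA. They are the mouse relatives of human eosinophil-derived neurotoxin and eosinophil cationic protein, and in rodents the family has grown by repeated gene duplication into tight clusters of very similar genes and pseudogenes. Their products were first known from eosinophil granules, and Ear1 and Ear2 transcripts are also abundant in resident alveolar macrophages, where they serve as marker genes. In the cytosol, the ribonuclease inhibitor encoded by Rnh1 binds and blocks enzymes of this family.

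All 4 genes lie on mouse chromosome 14, and each has 2 exons in its transcript, of which the downstream exon holds the whole coding sequence. In the deposited table (build mm10), Ear1 (ENSMUSG00000072601) spans chr14:43818765-43875517 on the reverse strand and Ear10 (ENSMUSG00000090166) spans chr14:43922720-43923559 on the reverse strand. Ear2 (ENSMUSG00000072596) spans chr14:44102654-44103534 on the forward strand, and Ear6 (ENSMUSG00000062148) spans chr14:51853699-51854643 on the forward strand. The long Ear1 span also contains the pseudogenes Ear-ps9, Ear-ps12 and Ang-ps2, while the annotated Ear1 transcript takes up only its end, with exons at 43819577 to 43819639 and 43818765 to 43819414. The coding sequence is 465 bases long in Ear1 and Ear6 and 468 in Ear2 and Ear10.

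The start-site windows of 3 of the genes are shown because Ear1, Ear2 and Ear10 are nearly the same in sequence there and yet were read at very different levels. Each window holds 250 bases before RefSeq's start of the gene and 50 after it, on build GRCm38.p6, written 5′ to 3′ on the strand of the gene. For Ear10 that start is 43923596, upstream of the start in the deposited table (43923559). For Ear1 it is 43819639, the start of the annotated transcript. That lies far downstream of the start of the long Ear1 span in the deposited table (43875517). Only for Ear2 is the start the same in both. Within the aligned part, capitals mark bases that differ from Ear2 or are inserted against it, and in Ear2 those that differ from Ear1 or are inserted against it. Bases at the window ends beyond the alignment are in lower case. The windows are chr14:43819590-43819889 for Ear1 (reverse strand), chr14:44102404-44102703 for Ear2 (forward strand) and chr14:43923547-43923846 for Ear10 (reverse strand).
Ear1: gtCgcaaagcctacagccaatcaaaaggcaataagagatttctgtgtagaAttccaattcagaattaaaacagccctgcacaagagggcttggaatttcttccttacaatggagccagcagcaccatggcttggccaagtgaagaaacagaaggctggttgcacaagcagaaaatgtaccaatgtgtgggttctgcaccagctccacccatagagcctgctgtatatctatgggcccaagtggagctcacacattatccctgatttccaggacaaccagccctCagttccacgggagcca
Ear2: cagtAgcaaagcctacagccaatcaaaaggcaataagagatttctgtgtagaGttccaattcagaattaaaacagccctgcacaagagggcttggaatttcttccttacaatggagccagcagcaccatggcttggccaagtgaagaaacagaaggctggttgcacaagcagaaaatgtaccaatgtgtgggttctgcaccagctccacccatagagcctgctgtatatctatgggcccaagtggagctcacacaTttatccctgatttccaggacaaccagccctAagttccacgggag
Ear10: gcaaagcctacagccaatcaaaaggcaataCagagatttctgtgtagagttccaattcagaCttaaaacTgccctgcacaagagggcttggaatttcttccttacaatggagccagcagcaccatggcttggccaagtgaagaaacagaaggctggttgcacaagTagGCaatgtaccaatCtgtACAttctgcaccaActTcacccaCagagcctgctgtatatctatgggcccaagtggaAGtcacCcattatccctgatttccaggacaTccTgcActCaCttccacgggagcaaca
Where they could be aligned, the Ear1 and Ear2 windows were identical at 294 of 298 positions (98.7%). Ear10 was 92.6% identical to Ear1 and 92.6% to Ear2 there. The Ear6 window, which is not printed, was 86.6% identical to Ear1 and 86.2% to Ear2.

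Short motifs were searched in these windows on both strands. The CCAAT box (CCAAT) occurred 3 times each in Ear1, Ear2 and Ear10 and once in Ear6, where 37.4% of all 32851 start-site windows of the same length hold it. A C/EBP-type pattern (TTNCNNAA) occurred once in each of the 4 genes, against 40.7% of all windows. No match was found in any of the 4 for GAGGAA, a core bound by PU.1 (28.3% of all windows), for the GATA pattern AGATAA (11.2%) or for the STAT pattern TTCNNNGAA (8.3%). No match of 1 motif overlapped a match of another in these 4 genes.

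The likeness extends into the transcripts, so reads may be shared between members. Along the transcripts, Ear1 was 96.2% identical to Ear2 and 92.8% to Ear10, Ear2 was 94.5% identical to Ear10, and Ear6 was 88.6% identical to Ear1 and to Ear2. Of all stretches of 50 bases, 57.4% of those in Ear1, 41.5% in Ear2, 39.9% in Ear10 and 1.4% in Ear6 also occurred in another annotated transcript. Those of Ear1, Ear2 and Ear10 were found in the other members and in the pseudogenes Ear-ps2 and Ear-ps9. Of the stretches of 100 bases, 23.9% of those in Ear1 and 13.9% in Ear2 were shared with another gene, and none of them between Ear1 and Ear2. The read length and the handling of reads that fit several genes are unknown (not given in the sources used here), so the split of reads between members is uncertain, most of all for the rarely read Ear10.

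Values are normalized counts from the deposited table. Recovered reads per library ranged from 15106415 to 88059630, and mitochondrial ribosomal RNA took 3.12% to 28.99% of them. The sort markers were read in every library, Siglecf at 3056.4 to 9550.6 and Itgax, which encodes CD11c, at 25185 to 44133.2 normalized counts. The filter on low values was passed by 16 of 16 alveolar macrophage markers. It was also passed by 14 of 14 monocyte-derived or interstitial macrophage, 7 of 7 dendritic cell and 7 of 7 alveolar epithelium markers. Passing it thus does not tell cell types apart. Tests were made with limma on log2(normalized count + 1) for the 17390 genes that reached 10 normalized counts in 2 or more libraries. A gene was called at an adjusted p (Benjamini-Hochberg) of at most 0.05. Log2 fold changes are given ± their standard error (SE), and means ± SD. Where libraries of 2 groups are said to lie apart or to overlap, the share of all genes that do so was not computed. With 2 or 3 libraries per group this is a description only. Of the 4 members, 3 passed the filter, and Ear6 did not.

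Ear2 was the most abundant member in every library. Per kilobase of exon it held rank 11 to 44 among all genes, depending on the library, and rank 28 to 44 in 2-week MHCII-high cells. Ear2 made up 73.6% to 91.5% of the normalized counts summed over the 4 members. Control replicates 1 and 3 had 28759.1 and 22942.2 normalized counts of Ear2. In MHCII-low cells, Ear2 stood at 29916.6, 18839.4 and 19025.3 in 2-week replicates 1 to 3, and at 22822.2, 29350.5 and 32409.2 at 4 weeks. In MHCII-high cells, it stood at 12446.9, 12831.7 and 19730.4 at 2 weeks, and at 24229.7, 23400.9 and 22633.6 at 4 weeks. The 2-week MHCII-high libraries were the low ones, below all control and all 4-week libraries, while they overlapped with 2-week MHCII-low cells.

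Ear1 was read at a lower level and varied more between groups. Per kilobase, its rank ran from 68 to 142 in the 4-week groups and controls, from 186 to 273 in 2-week MHCII-low cells and from 449 to 558 in 2-week MHCII-high cells. The controls had 6166.8 and 6049.6 normalized counts of Ear1. In MHCII-low cells, Ear1 stood at 4564.3, 2945.9 and 3011.8 at 2 weeks, and at 5643.6, 8238.4 and 9058.1 at 4 weeks. In MHCII-high cells, it stood at 1453, 1385.2 and 1821.9 at 2 weeks, and at 6395.6, 4459 and 8117 at 4 weeks. The 2-week MHCII-high libraries were below every other library, and the 2-week MHCII-low libraries were next, below both controls and every 4-week MHCII-low library. At least 1691 reads stood behind each Ear1 value and at least 11642 behind each Ear2 value.

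**Figure D1:**
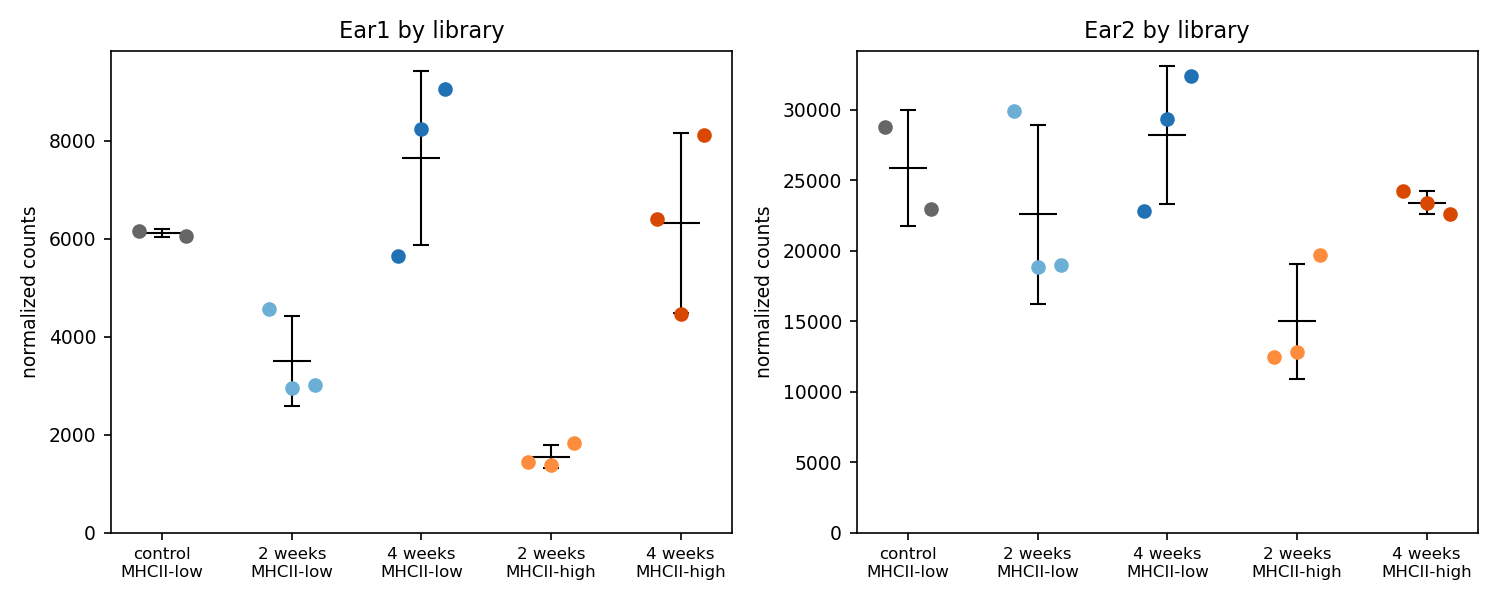
Normalized counts of Ear1 (left) and Ear2 (right) in each library (points, replicates from left to right), by group on the horizontal axis, with the mean (long dash) and SD (whiskers) of 2 control libraries or 3 libraries per other group. Ear1 in 2-week MHCII-high cells, at 1385.2 to 1821.9, lies below all other libraries, and the Ear2 groups differ less.

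Ordered by mean, Ear1 ran from 4-week MHCII-low cells (7647 ± 1782, SD, n = 3) through 4-week MHCII-high cells (6324 ± 1830, n = 3), controls (6108 ± 82.9, n = 2) and 2-week MHCII-low cells (3507 ± 916, n = 3) to 2-week MHCII-high cells (1553 ± 235, n = 3). The top 3 groups overlapped, and the 2-week MHCII-low libraries overlapped with the 4-week MHCII-high ones. Ear2 followed nearly the same order, with 28194 ± 4897 in 4-week MHCII-low cells, 25851 ± 4113 in controls, 23421 ± 798 in 4-week MHCII-high cells, 22594 ± 6342 in 2-week MHCII-low cells and 15003 ± 4099 in 2-week MHCII-high cells. Each Ear2 group overlapped with the next one in that order.

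Whether MHCII-high and MHCII-low cells differ in Ear expression was asked at each time. At 2 weeks, 1 of the 3 tested members was called, where 2.87% of all tested genes were. This was Ear1, lower in MHCII-high cells by a log2 fold change of -1.15 ± 0.22 (limma adjusted p 0.0049), with the libraries of both groups apart. Ear2 had a log2 fold change of -0.59 ± 0.20 and did not pass (limma adjusted p 0.13). The mitochondrial ribosomal RNA share also differed between these groups, at 22.51% to 26.25% in MHCII-high and 3.42% to 18.32% in MHCII-low libraries. With that share as a covariate the Ear1 difference was -1.03 and no longer passed (limma adjusted p 0.07), while it passed without any 1 of the 6 libraries.

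At 4 weeks, none of the 3 tested members was called between MHCII-high and MHCII-low cells, against 2.5% of all tested genes. Ear1 had a log2 fold change of -0.29 ± 0.22 (limma adjusted p 0.59) and Ear2 of -0.25 ± 0.20 (limma adjusted p 0.61), and both genes' libraries overlapped between the groups. Averaged over both times, 1 member was called against a background of 7.21%, which was Ear1 at -0.72 ± 0.16 (limma adjusted p 0.0062), whereas Ear2 was at -0.42 ± 0.14 (limma adjusted p 0.078). With the mitochondrial share as a covariate Ear1 was not called for this mean (-0.62, limma adjusted p 0.12), and with library totals, edgeR or DESeq2 both Ear1 and Ear2 were called. Ear2 was also called here without 4-week MHCII-low replicate 1 (-0.49, limma adjusted p 0.045) or 2-week MHCII-high replicate 3 (-0.53, limma adjusted p 0.024). It was at -0.31 without 2-week MHCII-low replicate 1 (limma adjusted p 0.22) and at -0.36 with the mitochondrial share as a covariate (limma adjusted p 0.37).

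The interaction tested whether the high-minus-low difference itself changed between the times. No member and 0% of all tested genes passed. The Ear1 difference was 0.87 ± 0.32 closer to 0 at 4 weeks on the log2 scale, with an unadjusted p of 0.0123 and a limma adjusted p of 0.68. For Ear2 the interaction was 0.34 ± 0.28 (limma adjusted p 0.93). Across all genes 987 had an unadjusted p under 0.05 by limma, edgeR called 0 and DESeq2 called 60, none of them a member. That Ear1 was called at 2 weeks and not at 4 weeks is therefore not shown to be a difference between the times.

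How Ear expression differs between the times was compared within each sort. In MHCII-high cells, 1 of the 3 tested members was called at 4 against 2 weeks, where 1.07% of all tested genes were. Ear1 rose with a log2 fold change of 1.99 ± 0.22 (limma adjusted p 0.00013), and only 1 of the 17390 genes had a smaller p in this comparison. Of the 186 genes called, 54 were higher at 4 weeks (29%; 41.1% of the calls by DESeq2). Ear2 had a log2 fold change of 0.68 ± 0.20 and did not pass (limma adjusted p 0.1). Its 4-week libraries lay above its 2-week libraries, but how many of all genes separate in this way was not computed. When these 6 libraries were fitted alone, no gene was called, and Ear1 had the same fold change with a limma adjusted p of 0.063.

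In MHCII-low cells, 1 of the 3 tested members was called at 4 against 2 weeks, where 0.857% of all tested genes were. Ear1 rose by 1.13 ± 0.22 (log2, limma adjusted p 0.011), the libraries of both times being apart, and Ear2 was at 0.34 ± 0.20 (limma adjusted p 0.82) with overlapping libraries. Of the 149 genes called, 19 were higher at 4 weeks (12.8%; 24.1% of the calls by DESeq2). The Ear1 call was lost without 2-week replicate 2 or 3 or 4-week replicate 2 or 3, where the fold change was 0.99 to 1.06 (limma adjusted p 0.073 to 0.087). It was also lost, at the same fold change of 1.13, without a filter on low values (limma adjusted p 0.064) and with only these 6 libraries in the fit (0.21).

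Against water-treated controls, what remains different after bleomycin was asked for each group, and the 4 comparisons share the same 2 control libraries. In 2-week MHCII-high cells 2 of the 3 tested members were called, both lower, with a background of 4.63%. Ear1 was lower by a log2 fold change of -1.99 ± 0.25 (limma adjusted p 1.6e-05) and Ear2 by -0.81 ± 0.22 (limma adjusted p 0.041). MHCII level and bleomycin differ together in this comparison, and in that of 4-week MHCII-high cells, and cannot be told apart. The Ear2 call was lost without control replicate 1 (-0.65, limma adjusted p 0.38) or 3 (-0.97, limma adjusted p 0.1) and without 2-week MHCII-high replicate 1 (-0.69, limma adjusted p 0.18) or 2 (-0.71, limma adjusted p 0.16). It was also lost with edgeR (adjusted p 0.056), without a filter on low values (0.099), with only the compared groups in the fit (0.087) and with the replicate number as a block (0.072), whereas the Ear1 call held without each of the 5 libraries.

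No member was called in the other 3 comparisons with control. In 2-week MHCII-low cells (background 1.91%), Ear1 had a log2 fold change of -0.83 ± 0.25 (limma adjusted p 0.11) with all libraries below both controls, and Ear2 of -0.22 ± 0.22 (limma adjusted p 0.77). In 4-week MHCII-low cells (background 0.046%), Ear1 was at 0.30 ± 0.25 and Ear2 at 0.12 ± 0.22 (limma adjusted p 0.94 and 0.98). In 4-week MHCII-high cells (background 2.15%), Ear1 was at 0.01 ± 0.25 and Ear2 at -0.13 ± 0.22 (limma adjusted p 1 and 0.86). The sign of the Ear1 value near 0 turned with the scaling. Since these are bulk samples, fewer cells that express a gene and less RNA of it per cell cannot be told apart.

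**Figure D2:**
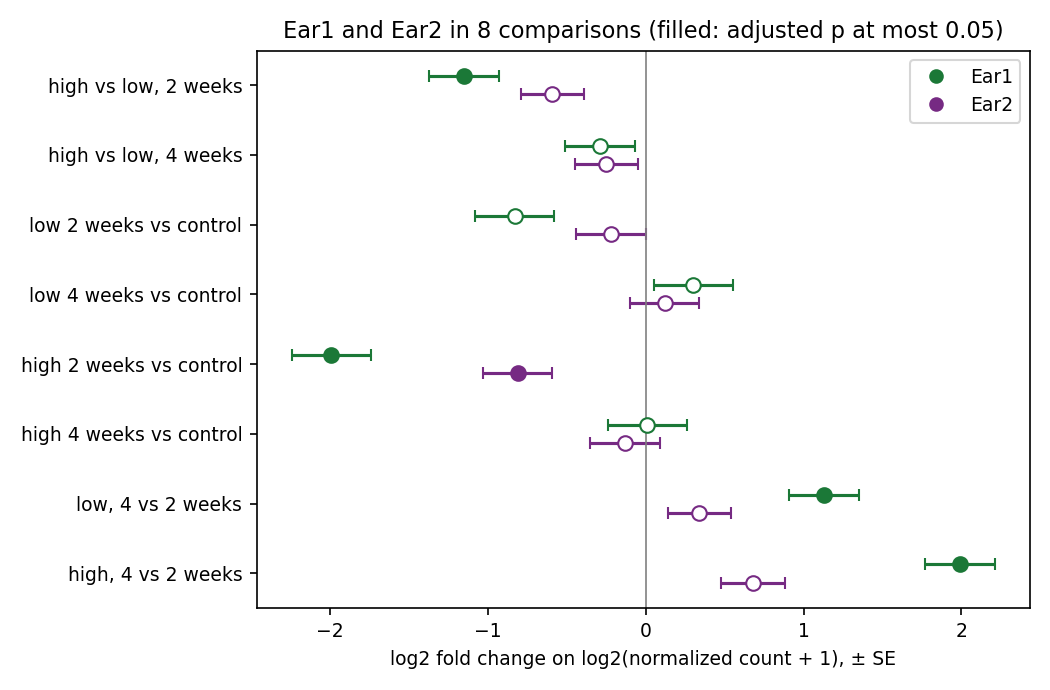
Log2 fold changes of Ear1 and Ear2 (horizontal axis, points with SE whiskers) in 8 comparisons (vertical axis) from 1 limma fit of 14 libraries. Filled points passed an adjusted p of 0.05, which was the case for Ear1 in 4 of the 8 and for Ear2 in 1, MHCII-high cells at 2 weeks against control.

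Ear1 and Ear2 did not keep a constant proportion. The ratio of Ear1 to Ear2 per kilobase of exon is taken within a library, so that it does not depend on how libraries are scaled to each other, and it is given without a test. The ratio was 0.211 and 0.26 in the controls. In MHCII-low cells, it was 0.15, 0.154 and 0.156 at 2 weeks and 0.244, 0.276 and 0.275 at 4 weeks. In MHCII-high cells, it was 0.115, 0.106 and 0.0909 at 2 weeks and 0.26, 0.188 and 0.353 at 4 weeks. All 6 of the 2-week libraries lay below the other 8, and among them MHCII-high libraries lay below MHCII-low ones. Where Ear2 was high in a 2-week library (29916.6 in MHCII-low replicate 1), its ratio was still 0.15.

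**Figure D3:**
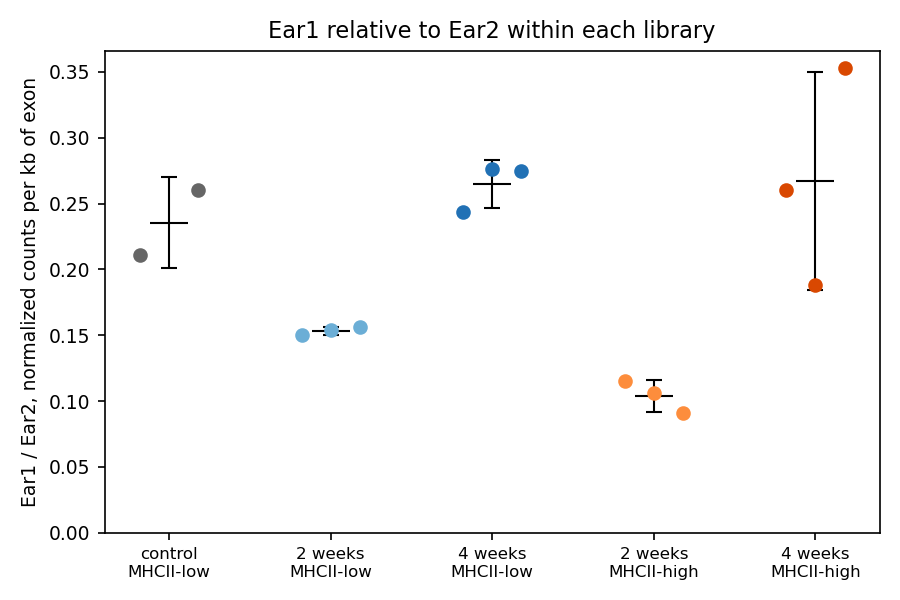
Ratio of Ear1 to Ear2 in normalized counts per kilobase of exon (vertical axis) for each library (points) by group, with the mean and SD. The 2-week libraries lie between 0.0909 and 0.156, and the control and 4-week libraries between 0.188 and 0.353.

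Ear10 and Ear6 were close to unread in these cells. Ear10 had 138 reads over all 14 libraries, between 1 and 49 per library, at 1.6 to 22.4 normalized counts. It stood at 19.1 and 6 in the controls, and only 4-week MHCII-low replicate 3, at 22.4, also exceeded 10. Ear10 was called in none of the 10 comparisons, where 0% to 7.21% of all tested genes were. Ear6 had 54 reads in all, 28 of them in control replicate 1 at 10.9 normalized counts. It was read in 6 libraries, which were both controls, 2 of the 4-week MHCII-low libraries (4.3 each), 2-week MHCII-low replicate 3 (5.5) and 2-week MHCII-high replicate 3 (2.6). In the 4-week MHCII-high cells no library held an Ear6 read, which allows up to 3 reads per library. Given the stretches that Ear10 shares with Ear1 and Ear2, how many of its few reads came from them was not tested.

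Per kilobase of exon, every other family gene lay below Ear1 and Ear2 in every library. Of 29 RNase A superfamily genes in the table, 12 were at 0 in all libraries, 8 had some reads without passing the filter, and 9 were tested, 3 members and 6 others. The 4 members made up 90.3% to 97% of the normalized counts of the family in each library. Rnase4, a broadly made secreted ribonuclease, was at 836.8 to 2181.1 normalized counts, and Rnase6, known from monocytes and macrophages, was at 19.1 to 243.2. The angiogenin gene Ang did not exceed 40.2, Ear-ps2 52.3 and Ear-ps9 19.2. None of these 5 genes was called in any of the 10 comparisons, where 0% to 7.21% of all tested genes were. Rnase4 and Ang overlap in the genome, so that their reads are not fully separable.

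In MHCII-low cells at 4 against 2 weeks, the 9 tested family genes all had positive log2 fold changes, with a median of 0.79 where that of all tested genes was 0.03, but only Ear1 passed. The 9 stayed positive with other settings, but the median varied. It was 0.26 with library totals, 0.23 with TMM factors, 1.02 with edgeR and 1.05 with DESeq2. Of the 9, Ear10, Ear-ps2, Ear-ps9, Ang and Rnase2a were rarely read. Each had 4 to 22 reads in all at 2 weeks and 18 to 57 at 4 weeks in these cells. Ear10 passed the filter only through control replicate 1 and 4-week MHCII-low replicate 3. The filter itself thus favours a positive sign for Ear10 in this comparison. Ear1, Ear2, Ear10, Ear-ps2 and Ear-ps9 also share stretches of sequence, so reads may be shared between them. In MHCII-high cells at 4 against 2 weeks 6 of the 9 were positive, with a median of 0.32 against -0.07 for all genes, and again only Ear1 passed.

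Rnase2a, for which RefSeq lists the synonym Ear11, moved opposite to Ear1 at 2 weeks. In 2-week MHCII-high cells it stood at 75.1, 40.1 and 79.9 normalized counts, and at 0, 0 and 2.2 in 2-week MHCII-low cells. In the other groups it was at 8.2 and 0 in controls, at 1.7, 1 and 16 in 4-week MHCII-low cells and at 6.2, 0 and 3.7 in 4-week MHCII-high cells. The 2-week MHCII-high libraries were thus above all others. The difference between MHCII-high and MHCII-low cells at 2 weeks was called (log2 fold change 5.42 ± 1.24, limma adjusted p 0.017, and 0.048 without the filter). Its size rests on near-empty libraries and fell to 3.58 with a pseudocount of 5 and to 1.32 with library totals, and the call was lost with edgeR (adjusted p 0.099) and without any 1 of the 6 libraries except MHCII-low replicate 3 (limma adjusted p 0.052 to 0.086). At 4 against 2 weeks in MHCII-high cells Rnase2a had a log2 fold change of -4.29 ± 1.24 and did not pass (limma adjusted p 0.096). It was also not called in 2-week MHCII-high cells against control or between the sorts over both times. With a filter of 50 normalized counts in 3 libraries, Rnase2a was not tested. No stretch of 50 bases of its transcript occurs in another annotated transcript.

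**Figure D4:**
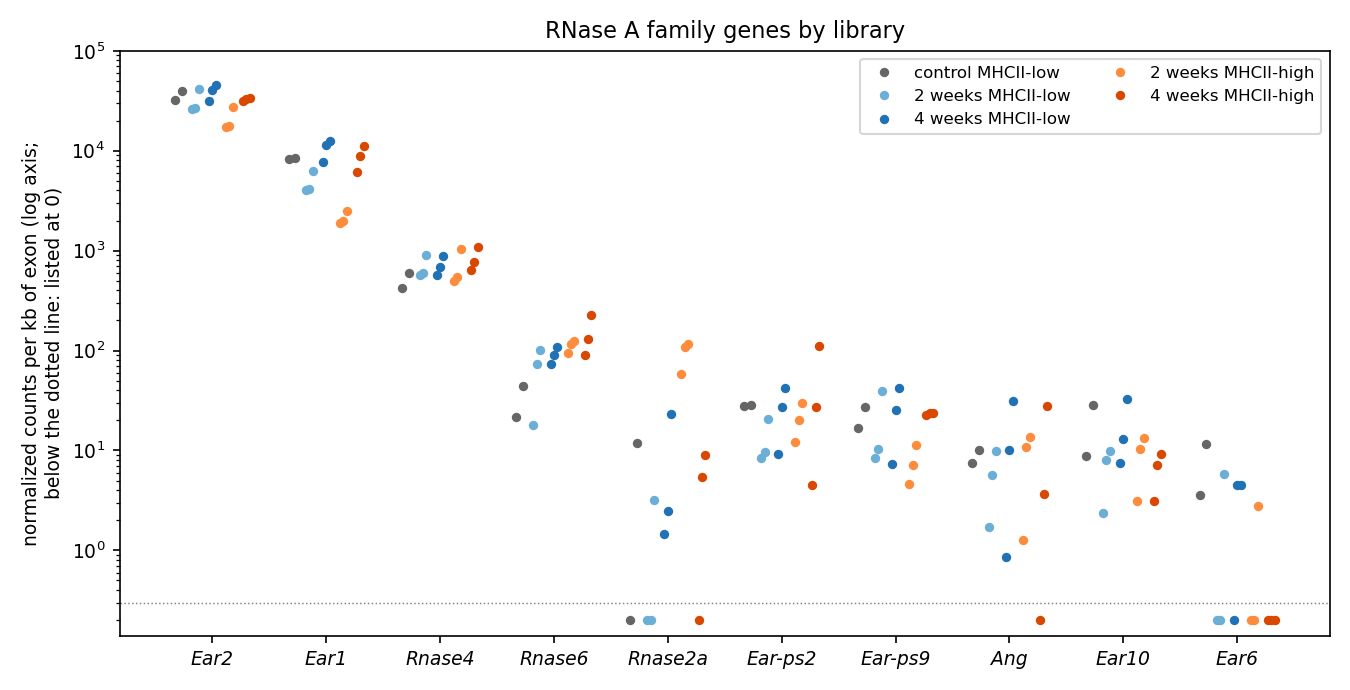
Normalized counts per kilobase of exon on a log axis for the 9 tested RNase A family genes and Ear6 (horizontal axis), 1 point per library coloured by group, with values listed at 0 drawn below the dotted line. Ear2 and Ear1 lie above all other family genes in every library, and Rnase2a is highest in 2-week MHCII-high cells.

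Rnh1, the inhibitor of these enzymes, was read in all libraries (1107.7 to 4125.2 normalized counts). Its mean was 1812 in controls, 3139 and 2659 in MHCII-low cells at 2 and 4 weeks, and 1958 and 1414 in MHCII-high cells at 2 and 4 weeks. It was lower in MHCII-high than MHCII-low cells at 4 weeks (log2 fold change -0.91 ± 0.22, limma adjusted p 0.028) and over both times (-0.79 ± 0.16, limma adjusted p 0.0027), and at 2 weeks it was at -0.67 ± 0.22 without passing (limma adjusted p 0.12). The 4-week call was lost without 4-week MHCII-low replicate 1 or 3 or MHCII-high replicate 2 (fold changes -0.93 to -0.74, limma adjusted p 0.088 to 0.16). It was also lost without a filter (-0.91), with library totals (-1.04) and with only the compared groups in the fit (-0.91), at limma adjusted p 0.064 to 0.19. With the mitochondrial share as a covariate Rnh1 passed neither at 4 weeks (-0.77, limma adjusted p 0.12) nor over both times (-0.62, limma adjusted p 0.1).

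Because eosinophils carry SiglecF too, their defining genes were examined beside the Ear genes. Prg2 and Prg3, which encode the granule major basic proteins, were at 0 in all 14 libraries, and Epx, eosinophil peroxidase, did not exceed 25.5 normalized counts. Gata1 did not exceed 1.7, Cebpe 14.9 and Il5ra, the interleukin-5 receptor, 74.9, while Ccr3 was at 17 to 197.1 and Alox15 at 0 to 174.4. The 8 eosinophil markers summed to 21.4 to 419 normalized counts per library, where the 4 Ear genes summed to 13902 to 41494. The eosinophil sum was 156 to 419 in 2-week MHCII-high cells, 65.5 to 224 in 2-week MHCII-low cells and 47.4 to 82.2 in controls. At 4 weeks it was 97.2 to 139 in MHCII-high and 21.4 to 174 in MHCII-low cells. Of the 8 markers 4 were tested, and none was called in any of the 10 comparisons, where 0% to 7.21% of all tested genes were. The part of eosinophils in the Ear values was not tested.

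Markers of monocyte-derived or interstitial macrophages also differed between the groups. The 14 genes of that list summed to 65937 to 78246 normalized counts where Ear1 was lowest, in 2-week MHCII-high cells. The sum was 37508 to 44832 in 4-week MHCII-high cells, whose Ear1 overlapped with controls, and 30948 to 37070 in 2-week MHCII-low cells, whose Ear1 lay below them. They came to 19065 to 23598 in 4-week MHCII-low cells and 17765 to 19896 in controls, and none of the 14 was at 0 throughout. Much of these sums came from Csf1r, with means of 14120 in controls, 23904 in 2-week MHCII-low and 20697 in 4-week MHCII-high cells. Ccr2 and Cx3cr1 had means of 897 and 113 in 2-week MHCII-low and 3263 and 1060 in 4-week MHCII-high cells. Of the 14, only Csf1r, Cd14 and Ly6c2 had the lower mean in 4-week MHCII-high cells of these 2 groups. Between MHCII-high and MHCII-low cells at 2 weeks 8 of the 14 were called, all higher, with a median log2 fold change of 2.08 against 0.08 for all tested genes. The 8 neutrophil markers summed to 10480 to 15628 in the 2-week groups and 5151 to 10132 in the other groups. Most of that sum came from Csf3r, with group means of 4315 to 4969, Cxcr2, at 2298.6 to 4783.6 in the 2-week and 505.1 to 1789.9 in the other libraries, and Mmp8, at 3546.2 to 5818.5 and 913.4 to 2957.5. The neutrophil surface marker Ly6g did not exceed 22 normalized counts, S100a9 153.3 and S100a8 396.5. Of 7 dendritic cell and 7 alveolar epithelium markers, 3 each were called higher in MHCII-high cells at 2 weeks, where 2.87% of all tested genes were called. Scgb1a1, listed with the alveolar epithelium, stood at 161.6 to 24712.3 over the libraries. The part of any of these cell types in the Ear1 differences was not tested.

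The 16 alveolar macrophage markers summed to 677155 to 805027 normalized counts in 2-week MHCII-low cells, 460699 to 562577 in 2-week MHCII-high cells and 538424 to 542220 in controls. At 4 weeks the sum was 539143 to 694373 in MHCII-low and 476836 to 540968 in MHCII-high cells. Most of the sum came from Chil3, Mrc1 and Olr1, with means of 278217, 128789 and 127689 in 2-week MHCII-low cells. Against control, 13 of the 16 had positive log2 fold changes in that group, with a median of 0.21. Of these 16, 2 were called higher and 1 lower there. At 2 weeks, 8 of 16 were called, all lower in MHCII-high cells, with a median log2 fold change of -0.66. Marco, a scavenger receptor, was at -1.91 ± 0.22 and the keratin Krt19 at -1.59 ± 0.20 (limma adjusted p 1.4e-05 and 4.4e-05). At 4 against 2 weeks in MHCII-high cells, 1 was called higher and 1 lower. The higher one was Fabp1, a fatty acid-binding protein (2.05 ± 0.30, limma adjusted p 0.0018), and the lower one the protease Ctsk (-0.98 ± 0.17, limma adjusted p 0.0063). Neither was called with only these 6 libraries in the fit (limma adjusted p 0.13 and 0.063), and Ctsk not with library totals (0.091). In MHCII-low cells, 1 was called higher at 4 against 2 weeks, Fabp1 (1.27 ± 0.30, limma adjusted p 0.045), and 2 lower, Ctsk (-1.38 ± 0.17, limma adjusted p 5.5e-05) and the carbonic anhydrase Car4 (-1.10 ± 0.19, limma adjusted p 0.0033). None of these 3 was called with only these 6 libraries in the fit (limma adjusted p 0.082 to 0.25), and Car4 not with library totals (-0.94, limma adjusted p 0.055). Fabp1 was not called without a filter, with TMM factors, edgeR or the mitochondrial share (adjusted p 0.057 to 0.13), or without any 1 of the 6 libraries except 2-week replicate 1 (1.05 to 1.37, limma adjusted p 0.097 to 0.25). Fabp1 stood at 1425.7 and 1454.1 normalized counts in controls, 412.4 to 890.5 in 2-week MHCII-low cells and 1182.6 to 1604.9 in 4-week MHCII-low cells. In MHCII-high cells Fabp1 was at 145 to 215.6 at 2 weeks and 525.8 to 994.7 at 4 weeks, so its 2-week MHCII-high libraries were the lowest of all, as with Ear1.

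Pathways known to act on this family and on these cells were listed too. The type 2 cytokine response, whose cytokines raise some ribonucleases of this family in macrophages, had 14 tested genes. At 2 weeks 4 of them were called, all higher in MHCII-high cells, where 2.87% of all tested genes were called. Their median log2 fold change was 0.10 against 0.08 for all genes. The chemokine gene Ccl17 had the smallest p (log2 fold change 6.62 ± 1.02, limma adjusted p 0.00056). It was at 2.44 with library totals, where the pseudocount weighs more on low values, and was still called. None of the 14 was called at 4 against 2 weeks in MHCII-low or MHCII-high cells. Only 0.857% and 1.07% of all tested genes were called there, so the lack of a call says little. GM-CSF signalling and its target PPARG maintain alveolar macrophages. Of 13 genes of that axis none was called between MHCII-high and MHCII-low cells at 2 weeks (median -0.24). None was called between the times in MHCII-low or MHCII-high cells either (medians -0.15 and 0). The shares of all tested genes called were 2.87%, 0.857% and 1.07%, so the lack of a call says little. Over both times, Jak2 was higher (0.44 ± 0.13, limma adjusted p 0.039) and Pparg lower (-0.37 ± 0.10, limma adjusted p 0.027) in MHCII-high cells. Neither passed with the mitochondrial share as a covariate (0.24 and -0.38, limma adjusted p 0.48 and 0.15), and leaving out 1 library ended the Jak2 call for 7 and the Pparg call for 6 of the 12 libraries. Jak2 was also not called without a filter, with library totals, TMM factors, edgeR or the GC trend removed (0.29 to 0.44, adjusted p 0.074 to 0.16). Against control, 2 were called higher and 1 lower in 2-week MHCII-low cells, 1 higher and 1 lower in 2-week MHCII-high cells, 1 lower in 4-week MHCII-high cells and none in 4-week MHCII-low cells. The higher ones were the GM-CSF receptor chain Csf2rb and its relative Csf2rb2 at 2 weeks in MHCII-low cells (0.82 ± 0.17 and 0.63 ± 0.15, limma adjusted p 0.0092 and 0.031) and the kinase Jak2 in MHCII-high cells (0.71 ± 0.20, limma adjusted p 0.049). These 3 calls were lost with library totals and with only the compared groups, and without control replicate 1 (0.77, 0.58 and 0.49, limma adjusted p 0.14, 0.3 and 0.5) or 3 (0.87, 0.68 and 0.93, limma adjusted p 0.081, 0.17 and 0.07). The Csf2rb2 and Jak2 calls were also lost without any 1 of the bleomycin libraries of their comparison. The lower gene was Cd36, a receptor for fatty acid uptake, each time. Cd36 stood at 11939 and 16560.4 normalized counts in controls, 3623.6 to 7195.6 and 3229.3 to 5834.7 in 2-week MHCII-low and MHCII-high cells, and 9254.8 to 10610 and 5464.9 to 6878.3 in the same sorts at 4 weeks. All bleomycin libraries thus lay below both controls for Cd36. The log2 fold change was -1.71 ± 0.26 in 2-week MHCII-high (limma adjusted p 0.00017), -1.33 ± 0.26 in 2-week MHCII-low (0.0062) and -1.16 ± 0.26 in 4-week MHCII-high cells (0.016). The 2-week MHCII-low call was lost without control replicate 1 (-1.09, limma adjusted p 0.2) and with only the compared groups (0.17). The 4-week call was lost without control replicate 1 (-0.92, limma adjusted p 0.28), control replicate 3 (-1.39, just over 0.05) or MHCII-high replicate 3 (-1.05, 0.056), without a filter (0.058) and with only the compared groups (0.13).

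Genes whose pattern over the 14 libraries was most like that of each member were ranked by Pearson's r of log2(normalized count + 1), as a description. The libraries share groups, so r largely reflects group differences. For Ear1 they were C5ar1, a complement anaphylatoxin receptor (r = 0.92), Rras2, a small GTPase (0.92), Znrd1as (0.91), Crim1, a membrane protein that binds bone morphogenetic proteins (0.90), and Nln, the peptidase neurolysin (0.90). C5ar1 stood at 6392.1 to 9506.4 normalized counts in 2-week MHCII-high cells, 13273 to 14643.9 in 2-week MHCII-low cells and 14606.1 to 20064.1 in the other libraries. For Ear2 they were Ppt1, a lysosomal thioesterase (0.89), the pseudogene Ear-ps9 (0.89), Mir6386 (0.87), Pcmt1, which repairs damaged proteins (0.87), and Fpr2, a formyl peptide receptor (0.87). Ear-ps9 shares stretches of sequence with Ear2 and has at most 32 reads per library. Between Ear1 and Ear2 r was 0.87. For Ear10, with its few reads, r was 0.34 with Ear1 and 0.51 with Ear2, and the highest was 0.82 with Cdyl, followed by Golt1a (0.76), Bcdin3d (0.75), Hist1h2bg (0.75) and Flywch2 (0.74).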

How the data were processed

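RNA-seq was analysed for 14 libraries of sorted mouse lung cells. Bead-purified mRNA was used per the labels' protocols, cDNA was amplified with the NuGen Ovation V2 kit and libraries were made with Nextera XT. No molecular identifiers are described. Per the submitters' processing notes, STAR, DESeq2 and build mm10 were used, with no roles or versions given. The deposited signal is the authors' normalized count per gene, per the file headers, and the authors also deposited the GC percent and exon length of each gene. Values were whole multiples of 1 read's worth (0.3895 to 2.2374 normalized counts). Dividing by it gave whole reads within rounding for 99.99% to 100% of values (chance 4.6% to 26.2%). In control replicate 1 the step is small beside the rounding, so its recovered reads are less certain.

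The test was limma 3.58.1 in R 4.3.3 with a mean-variance trend on log2(normalized count + 1), fitted once to all 14 libraries with each group as a coefficient. The pseudocount understates changes of low genes. Benjamini-Hochberg adjustment ran over 17390 genes in each of 10 comparisons. As alternatives, edgeR 4.0.16 and DESeq2 1.42.0 were run on the recovered reads, and other pseudocounts, filters, scalings, covariates and left-out libraries were tried. The fit was tested on simulated data. Promoter windows came from RefSeq on build GRCm38.p6, and transcripts from GENCODE M21 were aligned. Genes named were the 4 members, tested family genes, Rnh1, the 5 genes most like each member, and up to 2 genes of smallest p per other list. Fabp1 and C5ar1 library values were chosen for display after being seen. Members and lists were chosen with earlier results of these data known.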

Additional observations from a re-analysis of the deposited data

How the results depend on the processing

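Over 12 alternatives, members were called in the same comparisons and numbers except as follows. In 2-week MHCII-high cells against control, 1 member in place of 2 was called without a filter on low values, with edgeR, with only the compared groups in the fit and with a replicate block (Ear2: log2 fold change -0.77, adjusted p 0.072 under the block). For MHCII-low cells at 4 against 2 weeks, 0 in place of 1 was called without a filter and with only the compared groups. With only those groups, 0 in place of 1 was called for MHCII-high cells at 4 against 2 weeks. Adjusting for the share of mitochondrial rRNA gave 0 in place of 1 for high against low at 2 weeks and over both times. Over both times, library totals, edgeR and DESeq2 gave 2 in place of 1. Leaving out 1 library at a time gave 1 to 2 calls for high against low at 2 weeks (2 without 2-week MHCII-high replicate 3, with Ear2 at -0.80, adjusted p 0.043, against -0.37, adjusted p 0.58, without 2-week MHCII-low replicate 1) and over both times, 1 to 2 for 2-week MHCII-high cells against control, and 0 to 1 for MHCII-low cells at 4 against 2 weeks. The other 6 comparisons kept their number of called members without any 1 library.

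The Ear1 value near 0 for 4-week MHCII-high cells against control (0.01) turned to -0.01 with library totals and with the GC trend removed, -0.03 with TMM factors, -0.02 with the mitochondrial share, and ranged from -0.19 to 0.24 without 1 library. Ear2 turned to 0.03 there without control replicate 1 (range -0.30 to 0.03), and to -0.04 in 4-week MHCII-low cells against control without control replicate 3 (range -0.04 to 0.28). Library totals moved the median of all genes by -0.11 for high against low at 2 weeks, 0.12 for 4-week MHCII-low cells against control and 0.14 for MHCII-high cells at 4 against 2 weeks, and DESeq2 by 0.12 for 4-week MHCII-high cells against control. Counts over all genes moved by more than 1.5 times with some settings: 207 to 1055 for high against low at 2 weeks (main 499), 56 to 911 at 4 weeks (434), 500 to 2122 over both times (1254), 36 to 665 and 0 to 74 for MHCII-low cells against control at 2 and 4 weeks (332 and 8), 44 to 749 for 4-week MHCII-high cells against control (374), and 15 to 320 and 0 to 638 at 4 against 2 weeks in MHCII-low and MHCII-high cells (149 and 186). Without 1 library they came to 205 to 457 and 266 to 483 for high against low at 2 and 4 weeks, 856 to 1376 over both times, 127 to 307 and 1 to 8 for MHCII-low cells against control at 2 and 4 weeks, and 377 to 598 (main 806) and 137 to 446 for MHCII-high cells against control. The lowest of these control counts came without control replicate 3, and without control replicate 1 they were 139 and 452 at 2 weeks and 207 for MHCII-high cells at 4 weeks. The interaction gave 0 to 2. At 4 against 2 weeks they came to 95 to 138 in MHCII-low and 64 to 298 in MHCII-high cells.

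Same-numbered MHCII-high and MHCII-low libraries deviated from their group means with correlations of 0.02 to 0.11 at 2 weeks and 0.01 to 0.03 at 4 weeks. For differently numbered libraries they were -0.12 to 0.08 and -0.03 to 0.02, so the ranges overlapped, though all same-numbered values were positive. These values do not settle whether the numbers are pairs. The labels name no shared animals, so the numbers were not taken as pairs. The replicate block changed no other call of Ear1 or Ear2. Reads of Ear6 and Ear10 are too few for differences at this depth to be detected.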
